A study of Mus musculus with 2 samples.

Results

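In wild-type mouse embryonic stem cells, 54 protein-coding genes of the RNA decay machinery were described, chosen by gene symbol alone. They are the CCR4-NOT, PAN2-PAN3 and PARN deadenylases, the proteins that bring deadenylases to a transcript, the decapping proteins, the XRN exonucleases, the exosome with the DIS3 family, and the factors of nonsense-mediated decay. The symbols matched 137 of 49490 protein-coding transcripts and 54 of 21587 protein-coding genes, and 53 of the 54 genes had a mean exon value of at least 10 in the deposited unit, against 10339 of all genes. The remaining gene, Btg4, which is known as an oocyte factor, was listed at 0 in both libraries. Exosc6, the remaining subunit of the exosome ring, was not analysed here.

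The decay of a eukaryotic mRNA usually starts with the shortening of its poly(A) tail. The message is then decapped and degraded from its 5′ end by XRN1, or degraded from its 3′ end by the exosome. RNA-binding proteins such as the Pumilio and Zfp36 proteins select messages for deadenylation, and nonsense-mediated decay removes transcripts with a premature stop codon. Several of these proteins, the CCR4-NOT complex among them, are known to be needed for the maintenance of embryonic stem cells.

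The cells were feeder-depleted DTCM23/49 XY embryonic stem cells grown with serum and leukemia inhibitory factor. They received 4-thiouridine (4sU), a uridine analogue that is built into new RNA, at 200 µM for 10 min. RNA carrying 4sU was pulled out through biotin, and this labeled RNA and the unlabeled RNA left behind were each sequenced as 1 library, both of biological replicate 1. Of the latter library, 1 label speaks of preexisting and another of total RNA, and here it stands for unlabeled RNA. With 1 library per pool there is no replicate check, no p-value is given, and each difference describes these libraries only. The table holds no read counts, so the depth is unknown and no counting error can be attached to a value. All 10 embryonic stem cell markers were at 10 or more, with a median of 1018. Of 8 fibroblast markers, 1 reached 10 (Thy1, 10.24), and Col3a1, Postn and Lum were at 0. Of 8 markers of differentiated lineages, 1 reached 10 (Pax6, 69.6), and Gata6, Sox17 and Foxa2 were at 0.

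Values are per length and in the deposited unit, which is 10 times the usual TPM, so that a value of 10 stands for 1 usual TPM. The value of a gene is the sum over its protein-coding transcripts. The labeled to unlabeled exon ratio of each gene was set against the median of all protein-coding genes past the filter, which was 0.757. A gene above this median takes more of the newly made RNA, for its part of the older RNA, than the median gene does. Its labeled value can still be below its unlabeled value. Both columns are relative abundances, so the ratio ranks genes and gives no absolute rate.

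As a group, the decay genes had a higher median exon value than all genes and a slightly lower labeled to unlabeled ratio. The median of their mean exon values was 139.9, against 75.8 for all genes, and the range was 11.95 to 1632. Their median labeled to unlabeled ratio was -0.27 on the log2 scale relative to all genes, with quartiles of -0.69 and 0.62, where all genes had quartiles of -0.59 and 0.70. Of the 53 genes, 15 were at least 1.5 times above the median of all genes, or 28.3%, and the share over all genes was also 28.3%. A further 19 genes, or 35.8%, were at least 1.5 times below it, against 25.4% of all genes, and 19 lay between. The split into higher and lower genes depends on the centre chosen. The median ratio of genes with a mean exon value of at least 100 was lower than that of all genes by 0.24 (log2 shift of -0.24), and relative to it 17 decay genes (32.1%, all genes 36.6%) were above and 11 (20.8%, all genes 16.4%) below the 1.5-fold limits. The higher genes were 44.1% of the decay genes past the limits with the first centre and 60.7% with the second, a shift that moves all genes alike.

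**Figure D1:**
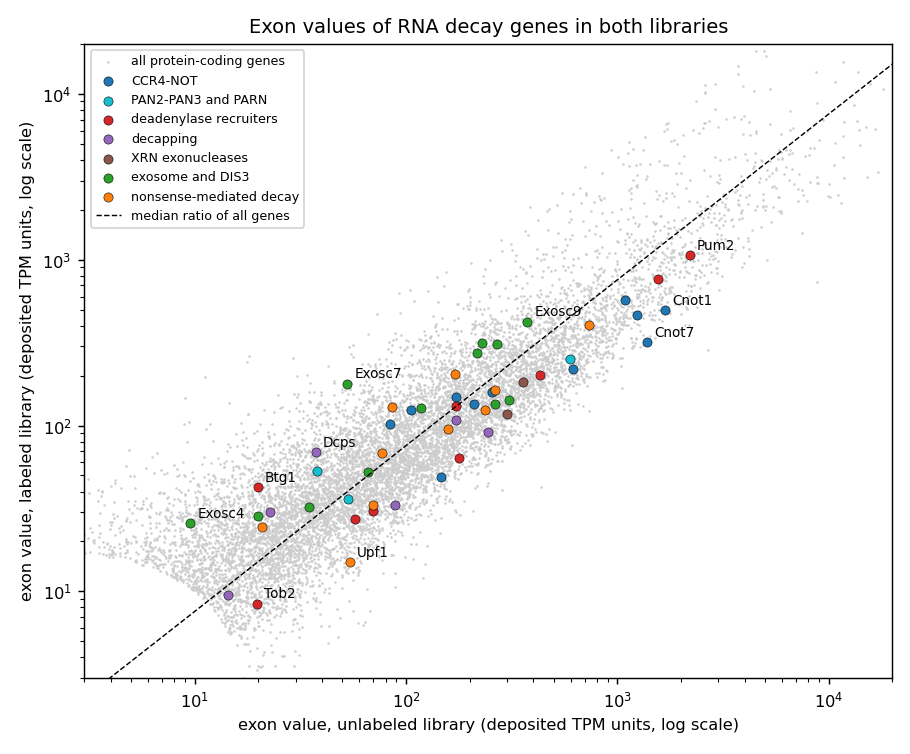
Exon values of each gene in the unlabeled library (x axis) and the labeled library (y axis), in the deposited unit on log scales. Coloured points are the 53 decay genes past the filter by role, grey points are all protein-coding genes past the filter, and the dashed line is the median ratio of all genes, 0.757. Exosc7, Exosc4 and Btg1 lie well above the line, and Cnot7, Cnot1 and Upf1 well below it.

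The medians differed between the roles. The exosome and DIS3 genes were high, with a median of 0.60 on the log2 scale relative to all genes. Of these 12 genes, 6 were above the 1.5-fold limit and 1 below it (all genes 28.3% and 25.4%). Relative to genes of like spliced length 3 of the 12 were above and 1 below (all genes 25.6% and 23.3%), with a median of 0.19. The CCR4-NOT genes were low at -0.52, with 2 of 11 above the limit and 5 below it. The recruiters of deadenylases were low at -0.66, with 1 of 9 above and 7 below. Relative to genes of like spliced length only 2 recruiters were below (all genes 23.3%), and their median was -0.47. Both XRN exonucleases were low, with a median of -0.76. These medians kept their sign under all 9 settings run for each role, the main one among them, but not always their size. The ranges were 0.19 to 0.84 for the exosome and DIS3 genes, -0.80 to -0.28 for CCR4-NOT, -1.04 to -0.42 for the recruiters and -1.25 to -0.41 for the XRN genes. The exosome value of 0.19 and the XRN value of -0.41 came from centring on genes of like spliced length. The recruiter value of -1.04 and the XRN value of -1.25 came from subtracting carry-over of unlabeled RNA. The decapping genes at -0.23, the PAN2-PAN3 and PARN genes at -0.15 and the nonsense-mediated decay genes at -0.31 turned sign in at least 1 setting, with highest values of 0.0079, 0.23 and 0.0026. Roles hold between 2 and 12 genes, and the values of a role are not replicates of it.

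**Figure D2:**
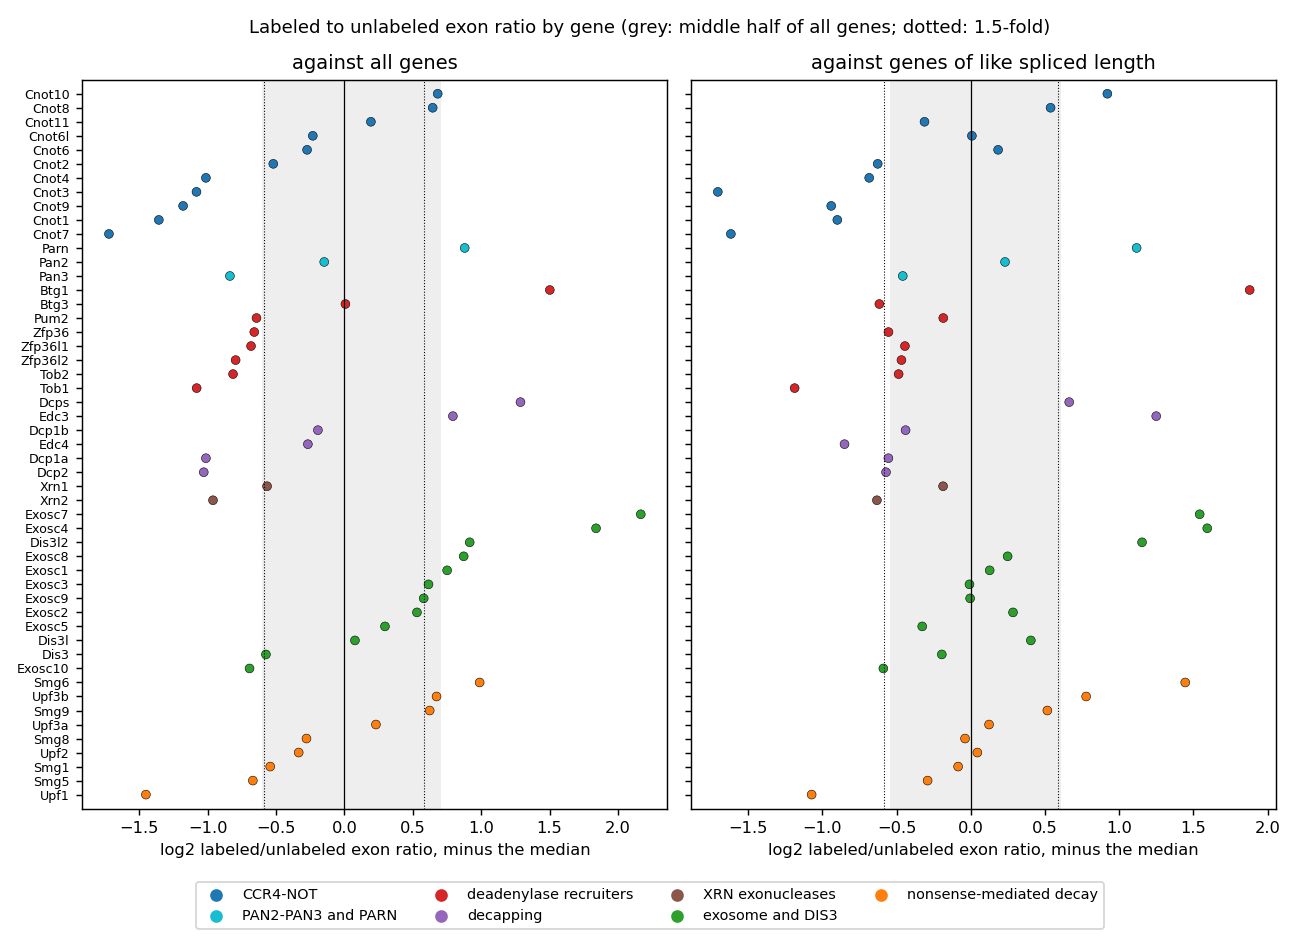
The log2 labeled to unlabeled exon ratio of 51 of the 53 genes (rows, coloured by role), relative to the median of all genes (left) and to the median of genes of like spliced length (10 groups of near equal size, right). The grey band is the middle part of all genes between the quartiles, and dotted lines mark 1.5-fold. Most exosome genes lie above 0 in the left panel and closer to 0 in the right panel, while Cnot7, Cnot3 and Upf1 lie far below 0 in both.

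Deadenylation is carried out mainly by CCR4-NOT, a complex built on the scaffold Cnot1. Cnot1 had an exon value of 498.0 in the labeled and 1684 in the unlabeled library, 2.56-fold below the median ratio of all genes (-1.36 on the log2 scale). Cnot7, a catalytic subunit that removes adenosines from the tail, had 317.9 labeled and 1384 unlabeled, the lowest ratio of all 53 genes at 3.30-fold below the median (-1.72). Its leading transcript has 7 exons and spans chr8:40492540-40511754 on the - strand of GRCm38. Cnot3, which forms a module with Cnot2 at one end of the scaffold, had 220.4 labeled and 615.7 unlabeled, or -1.08. Cnot9, which contacts adaptor proteins of the complex, had 48.74 labeled and 145.8 unlabeled, or -1.18. Each of these genes was thus more than 2-fold below the median, and Cnot1 and Cnot7 were also among the 5 most abundant decay genes. The third CCR4-NOT gene among these 5 was Cnot4, an E3 ubiquitin ligase, with 463.8 labeled and 1236 unlabeled, or -1.01. Cnot2 was at -0.52 with 570.2 labeled and 1080 unlabeled.

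The rest of the complex lay closer to the median or above it. Cnot10 and Cnot11 form the module at the other end of the scaffold, and Cnot10 had 101.9 labeled and 83.89 unlabeled, 1.60-fold above the median, and Cnot11 had 149.2 labeled and 172.3 unlabeled, 1.14-fold above it. Cnot8, the close relative of Cnot7 with the same catalytic activity, had 124.3 labeled and 105.0 unlabeled, 1.56-fold above the median. The catalytic subunits of the other family, Cnot6 and Cnot6l, were at -0.27 and -0.23. In total 3 CCR4-NOT genes were above the median and 8 below it. Relative to genes of like spliced length the median of the complex was -0.63. On this scale 1 gene was above and 6 were below the 1.5-fold limits (all genes 25.6% and 23.3%).

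Among the other deadenylases, Pan2, the catalytic subunit that starts tail shortening, had 36.25 labeled and 53.03 unlabeled (-0.15). Its partner Pan3 was far more abundant, with 252.7 labeled and 596.2 unlabeled (-0.84). Parn, which trims the tails of small nuclear and nucleolar RNAs, went the other way with 52.86 labeled and 37.95 unlabeled (0.88). The 3 genes lay on either side of the median and have no common direction.

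The recruiters included the decay gene with the highest value summed over coding transcripts. Pum2, a Pumilio protein that binds the motif TGTANATA in 3′ untranslated regions, had the highest mean exon value, 1632, with 1066 labeled and 2198 unlabeled (-0.64). Its sum runs over 12 coding transcripts, so this rank depends on the summing. The leading transcript of Pum2 had 116.4 labeled and 303.6 unlabeled, below that of Cnot1 with 282.5 and 1011. Zfp36, Zfp36l1 and Zfp36l2 bind AU-rich elements such as TATTTAT. Zfp36 had 27.47 labeled and 57.28 unlabeled (-0.66), Zfp36l1 had 203.0 and 430.2 (-0.68), and Zfp36l2 had 30.35 and 69.55 (-0.80). These 4 RNA-binding recruiters thus lay between -0.80 and -0.64 on the log2 scale.

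The BTG and TOB proteins contact Cnot7 and Cnot8 directly. Tob1 had 63.65 labeled and 177.7 unlabeled, 2.11-fold below the median (-1.08), and Tob2 had 8.45 and 19.62 (-0.81). Btg1 stood apart from the other recruiters, with 42.55 labeled and 19.85 unlabeled, 2.83-fold above the median. Btg3 was at the median with 130.6 labeled and 171.6 unlabeled (0.01). Btg2, a relative outside the symbol rule that belongs to the wider list of decay genes, had a ratio 4.09-fold above the median.

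The recruiters' own transcripts hold the letters that some of these proteins are known to bind, and stretches of 6 of them are shown. The sequences are 30 bases of the annotated 3′ untranslated region of the leading transcript, from GENCODE M21 on GRCm38, in the sense of the transcript, with the first match to the motif in capitals.
Zfp36, chr7:28376965-28376994 (- strand): agtgggcccttTATTTATgacgactttatt
Zfp36l1, chr12:80108421-80108450 (- strand): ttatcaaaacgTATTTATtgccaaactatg
Zfp36l2, chr17:84184913-84184942 (- strand): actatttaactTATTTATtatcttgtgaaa
Tob2, chr15:81849859-81849888 (- strand): tatcacctgctTATTTATgtacgaggttgg
Btg3, chr16:78360040-78360069 (- strand): ttggacttgagTATTTATatattgtgcatt
Pum2, chr12:8749816-8749845 (+ strand): taaagcaaaacTATTTATtgactttcttca
Pum2, chr12:8750154-8750183 (+ strand): gtttatagagaTGTATATAgaattatagtt
Zfp36, Zfp36l1 and Zfp36l2 each held 3 matches to TATTTAT, and Pum2 held 2 matches to TGTANATA. For the counts over genes, the complete protein-coding transcript with the highest mean exon value was used, which differs from the leading transcript in Cnot3 and Edc4. Over the 52 decay genes with such a transcript, 14 held TATTTAT (26.9%, against 25.4% of 10171 genes), 11 held TGTANATA (21.2%, against 22% of genes) and 37 held the shorter ATTTA (71.2%, against 62.5%), which also lies within TATTTAT. The motifs were searched on the sense strand. Decay genes with ATTTA had a median ratio of -0.57 on the log2 scale and those without it 0.58, where all genes had -0.16 and 0.31. Genes with a match had longer untranslated regions, with medians of 1060 bases with and 345 bases without ATTTA among the decay genes, and the part of this length in the ratio was not tested. A match is a run of letters and not a shown binding site.

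Decapping genes lay on both sides of the median. Dcps, which breaks down the cap remnant left by 3′ decay, had 68.97 labeled and 37.33 unlabeled, 2.44-fold above the median (1.29). Edc3, an enhancer of decapping, had 29.91 and 22.80 (0.79). Dcp2, the decapping enzyme, was on the low side with 90.88 labeled and 244.8 unlabeled (-1.03), and its cofactor Dcp1a had nearly the same ratio with 33.38 and 88.92 (-1.01). Dcp1b, the relative of Dcp1a, was the least abundant decay gene past the filter with 9.52 and 14.38 (-0.19). Edc4, a scaffold of the decapping complex, had 108.0 and 171.7 (-0.27). Of the exonucleases that take over after decapping, Xrn1, which acts in the cytoplasm, had 181.9 labeled and 355.5 unlabeled (-0.57), and Xrn2, which acts in the nucleus and in transcription termination, had 116.8 and 300.1 (-0.96).

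The exosome genes included the 2 highest ratios. Exosc7, a ring subunit, had 178.8 labeled and 52.61 unlabeled, 4.49-fold above the median (2.17) and the highest of all 53 genes. Its leading transcript has 8 exons and spans chr9:123113215-123136129 on the + strand of GRCm38. Exosc4, another ring subunit, had 25.74 and 9.50, 3.58-fold above the median (1.84). Exosc8 of the ring had 315.8 and 227.9 (0.87), and the cap subunits Exosc1 and Exosc3, which sit on the ring, had 275.8 and 216.4 (0.75) and 312.0 and 269.1 (0.61). Exosc9, Exosc2 and Exosc5 were between 0.30 and 0.58. All 8 of these core subunits lay above the median, and their median was 0.68. Their leading transcripts are short, with a median of 1065 bases against 2300 for all genes. Relative to genes of like spliced length the median of the 8 was 0.19, with 5 above 0 and Exosc3, Exosc5 and Exosc9 below it, and the part of length in these ratios was not tested. Exosc7 and Exosc4 remained 1.54 and 1.59 above genes of like length on the log2 scale.

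The catalytic subunits and the DIS3 family lay on both sides of the median. Exosc10, the nuclear exonuclease of the exosome, had 143.5 labeled and 306.4 unlabeled (-0.69), the only exosome gene below the 1.5-fold limit. Dis3, the main catalytic subunit in the nucleus, had a ratio of -0.57 from exon values of 134.01 and 263.4, just inside the limit, and its cytoplasmic relative Dis3l had 52.54 and 65.78 (0.08). Dis3l2, which degrades uridylated RNA without the exosome, had 28.47 and 19.93, 1.89-fold above the median (0.92). Relative to genes of like spliced length Exosc10 was at -0.59, Dis3 at -0.20, Dis3l at 0.40 and Dis3l2 at 1.15.

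Among the factors of nonsense-mediated decay, the helicase Upf1 at the centre of the pathway had the second lowest ratio of all decay genes, with 14.97 labeled and 54.05 unlabeled, 2.73-fold below the median (-1.45). Its partner Upf2 had 94.96 and 158.1 (-0.33). Upf3a and Upf3b, which link the pathway to the exon junction complex, were above the median, Upf3a with 68.57 and 77.19 (0.23) and Upf3b with 205.6 and 170.3 (0.67). Smg1, the kinase that phosphorylates Upf1, had 123.3 and 237.2 (-0.54), and of its partners Smg8 was at -0.28 and Smg9 at 0.62. Smg6, the endonuclease that cuts the target, had 128.6 and 85.61, 1.98-fold above the median (0.99). Smg5, which brings in deadenylases and decapping factors, was on the low side at -0.67 with 33.28 and 69.90.

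Paralogs placed in the same role group, not always with the same task, often differed in level by several fold. A few also differed in their ratio. Cnot7 was 7.42 times as abundant as Cnot8 in the mean of both libraries, 13.2 times in unlabeled RNA and 2.56 times in labeled RNA, so their ratios differed by -2.37 on the log2 scale, the largest difference of the pairs compared. Smg5 and Smg6 differed by -1.66, with Smg5 at 0.259 times the level of Smg6 in labeled and 0.816 times in unlabeled RNA. This difference describes the coding transcripts only, which carried 23.1% of the exon signal of Smg5 and 43.9% of that of Smg6. The retained-intron isoforms of Smg5 held more than its coding ones, with 117.9 labeled and 90.94 unlabeled. Dcp1a was 5.12 times as abundant as Dcp1b, with a difference in ratio of -0.82, and Dis3 was 3.36 times as abundant as Dis3l, with a difference of -0.65. Coding transcripts carried 100% of the exon signal of Dcp1a but 38.9% of that of Dcp1b, so the former level ratio holds for coding transcripts only. In other pairs the level differed and the ratio hardly did. Zfp36l1 was 6.34 times as abundant as Zfp36l2 with a difference in ratio of 0.11, and Tob1 was 8.60 times as abundant as Tob2 with one of -0.27. Cnot6 and Cnot6l were close in level (mean exon values of 206.8 and 173.0) and ratio (a difference of -0.04). Upf3a stood at 0.388 times Upf3b, and Xrn1 at 1.29 times Xrn2. The program that made the values divides reads that fit several transcripts among them, so values of close relatives and of isoforms are estimates that share reads.

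**Figure D3:**
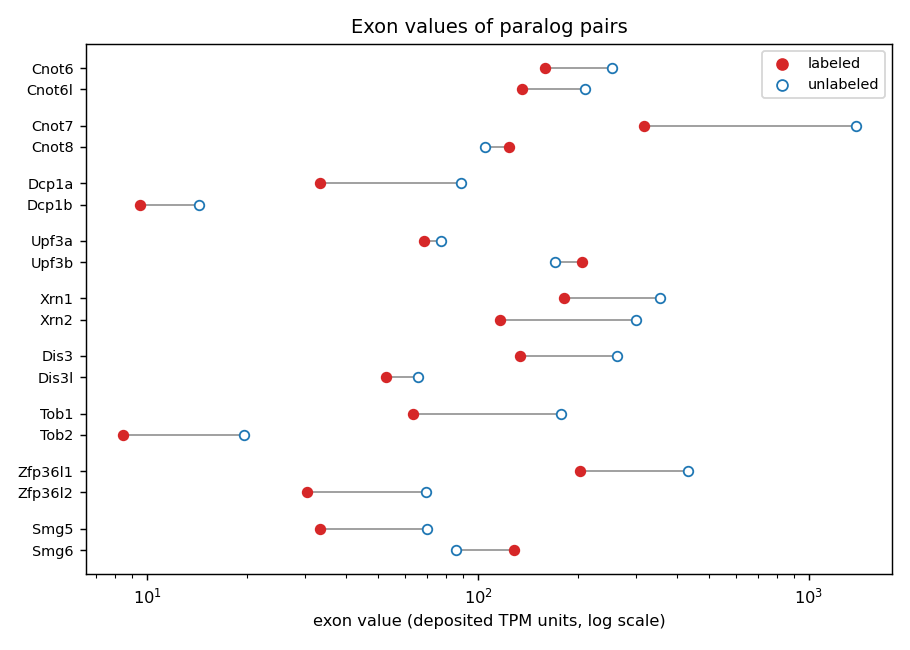
Exon values of 9 paralog pairs in the labeled library (filled points) and the unlabeled library (open points), in the deposited unit on a log axis. In Cnot7, Xrn2 and Tob1 the labeled value lies far left of the unlabeled one, while in Cnot8, Upf3b and Smg6 it lies to the right.

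The intron to exon ratio sets the signal of unspliced RNA against the exon signal, which holds unspliced and spliced RNA together. Both were summed over the transcripts of a gene that have an intron value. In the study's model this ratio has to stay below 1. The decay genes had a median ratio of 0.393 in labeled RNA and 0.059 in unlabeled RNA, against 0.466 and 0.085 for all genes. With a minimum exon value of 50 the labeled medians were 0.386 and 0.373, so the lower labeled median of the decay genes depends on the filter. The labeled ratio was above the unlabeled ratio in 53 of 53 decay genes, and in 94.2% of all genes. It was 1 or more in 8 decay genes, or 15.1%, against 17.6% of all genes. Over all rows, introns held 15.4% of the signal in labeled RNA and 6.26% in unlabeled RNA.

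The highest labeled ratio was that of Dcp1b, at 5.84 labeled and 1.09 unlabeled, from intron values of 55.58 and 15.61 over exon values of 9.52 and 14.38. Edc3 had 2.02 and 0.518, Exosc5 1.94 and 0.374, Cnot6 1.82 and 0.230, and Dis3l2 1.77 and 1.13. The others at 1 or more were Smg9 (1.64), Cnot6l (1.22) and Dcp1a (1.13). Of the 8 genes, 3 belong to decapping, but for Edc3 this depends on a minor isoform, as it does for Cnot6l outside decapping. Dcp1a has only 1 coding transcript. The leading transcripts of Edc3 and Cnot6l had labeled ratios of 0.718 and 0.746. That of Dcp1b had exon values of 5.37 labeled and 8.51 unlabeled, too low for the filter by itself. Dcp1b and Dis3l2 also had more intron than exon signal in unlabeled RNA. The lowest labeled ratios were those of Btg1 (0.019), Tob1 (0.040), Exosc3 (0.041), Zfp36 (0.047) and Exosc8 (0.070). In unlabeled RNA the intron value was listed at 0 for Btg1, Tob1 and Zfp36, and the ratio was 0.011 for Exosc3 and 0.041 for Exosc8. Exosc4 and Exosc7, with the highest exon ratios, had almost as much intron per exon in unlabeled as in labeled RNA, 0.144 against 0.148 for Exosc4 and 0.091 against 0.109 for Exosc7.

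Recruiters with a single intron were prominent among the low values. The leading transcript, the one with the highest mean exon value, has 2 exons in Btg1, Tob1, Tob2, Zfp36, Zfp36l1 and Zfp36l2. Of these 6 genes, 4 had a labeled ratio under 0.1 and an unlabeled intron value listed at 0, namely Btg1, Tob1, Zfp36 and Zfp36l2. Zfp36l1 had 0.261 and 0.023, and Tob2, with the longest unspliced transcript of the 6, had 0.927 and 0.071. Among all 502 genes whose leading transcript has 2 exons, 20.9% had a labeled ratio under 0.1 and 18.3% an unlabeled intron value of 0. Across the 53 decay genes the labeled ratio moved with unspliced length (Spearman's rho 0.553, all genes 0.338), a description over genes that share 1 library.

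**Figure D4:**
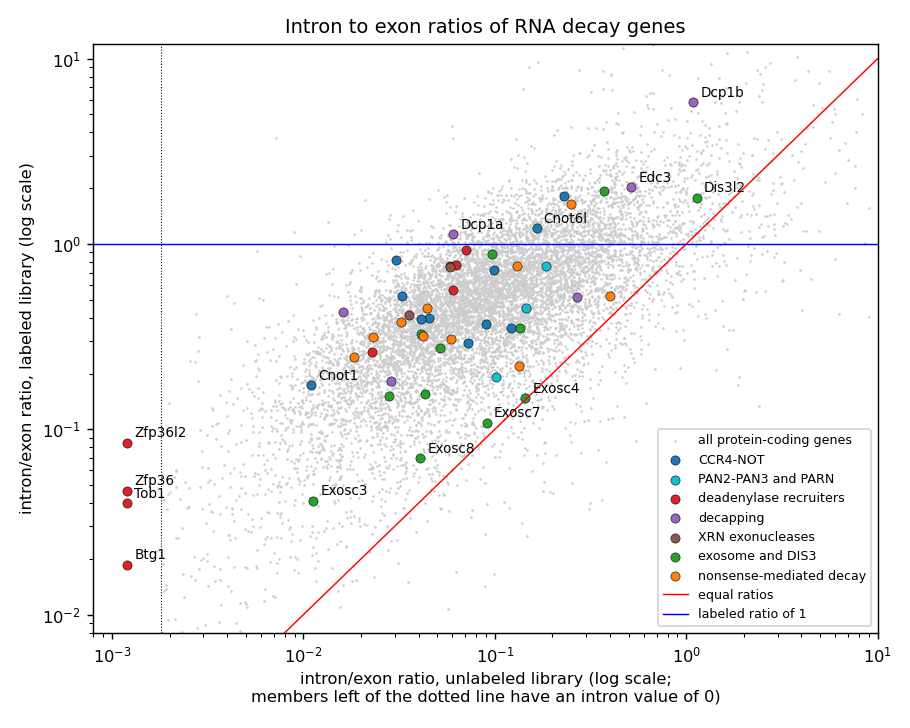
Intron to exon ratio of each decay gene in unlabeled RNA (x axis) and labeled RNA (y axis), on log scales, over all protein-coding genes with ratios in this range (grey). All 53 decay genes lie above the red line of equal ratios, 8 lie at or above the blue line at a labeled ratio of 1, and 4 recruiters with an unlabeled intron value of 0 are drawn at the left edge.

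The labeled to unlabeled exon ratio moved with the spliced length of the leading transcript. Over all 10339 genes Spearman's rho was -0.362, and over the 53 decay genes it was -0.385. With all genes split into 10 groups of near equal size by length, the median went from 0.51 in the shortest group and 0.62 in the third to -0.46 in the longest. The median of the 8 decay genes in the third group was 0.68, and that of the 8 in the longest group was -0.59. Relative to genes of the same length group, 10 decay genes were 1.5-fold above (18.9%, all genes 25.6%) and 12 were 1.5-fold below (22.6%, all genes 23.3%), and the median of the 53 was -0.19. Cnot7 (-1.62), Cnot3 (-1.71), Tob1 (-1.19) and Upf1 (-1.07) remained low and Btg1 (1.88), Exosc4 (1.59), Exosc7 (1.54) and Smg6 (1.45) remained high on this scale. The leading transcripts of Cnot3 (1020 bases), Edc4 (795 bases), Exosc9 (682 bases) and Cnot11 (635 bases) are short isoforms, and the length used for these genes is that of the isoform.

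**Figure D5:**
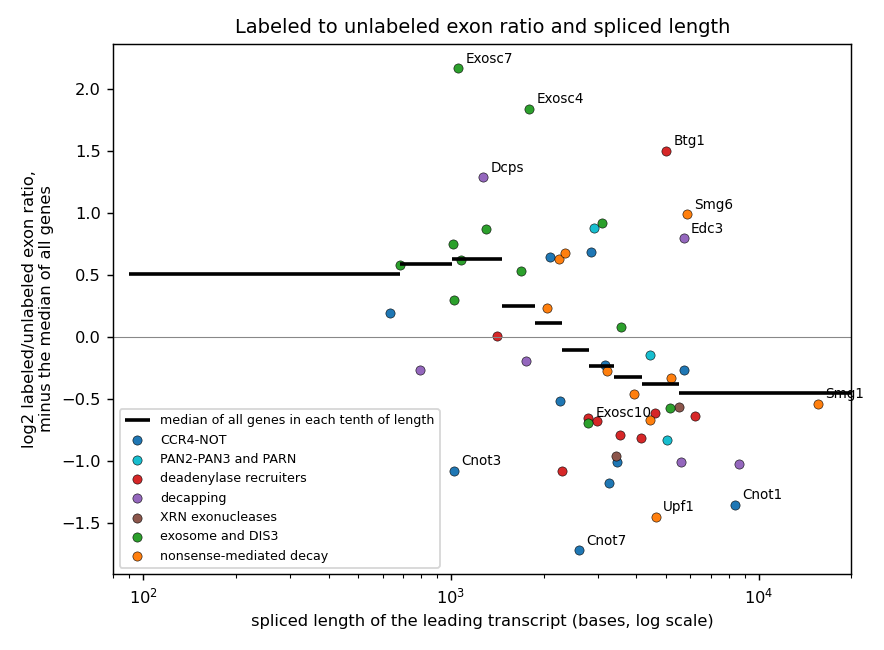
The log2 labeled to unlabeled exon ratio relative to all genes (y axis) against the spliced length of the leading transcript (x axis, log scale). Points are the 53 decay genes by role, and black bars are the medians of all genes in each of 10 length groups, which go from 0.51 to -0.46. The exosome genes lie mostly at short lengths, with Exosc7 and Exosc4 far above the bars, and Cnot7, Cnot3 and Upf1 lie far below them.

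The protein-coding transcripts carried under 50% of the exon signal in 16 of the 53 decay genes (30.2%, all genes 23.4%), among them Cnot7 (33.9%), Exosc10 (29.9%) and Smg5 (23.1%). Isoforms with a retained intron could be compared with the coding isoforms in 24 genes, and their labeled to unlabeled ratio was higher than the coding one in 16 (66.7%, against 71.6% of 3811 genes), at least 1.5 times higher in 10 (41.7%, against 36.1%) and at least 1.5 times lower in 3 (12.5%, against 6.72%). The median difference was 0.49 on the log2 scale, against 0.30 for all genes. In Dis3l2 the retained-intron isoforms had 29.31 labeled and 3.06 unlabeled (2.75 above the coding isoforms), in Smg6 20.75 and 3.43 (2.01), in Smg1 56.52 and 29.80 (1.87) and in Smg5 117.9 and 90.94 (1.44). Exosc7 went the other way with 29.12 and 24.85 (-1.54). Isoforms annotated as targets of nonsense-mediated decay were compared in 15 genes and had a higher ratio than the coding ones in 9 (60%, all genes 45.6%), with a median difference of 0.05, against -0.03 over 1880 genes. None was 1.5 times higher (all genes 8.78%), and 1 was 1.5 times lower (all genes 10.6%), that of Cnot3 with 95.56 labeled and 409.5 unlabeled (-0.62). The genes named here for their isoforms were chosen after their values were seen.

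Rates were computed from the intron to exon ratios of the leading transcripts with the study's equations for a single labeling time. Of 123 transcripts of decay genes at 10 or more with all values above 0, 19 could not be used because the labeled ratio was 1 or more or did not exceed the unlabeled ratio. This is 15.4% (95% Wilson interval 10.1 to 22.9%, over transcripts only), against 17.9% of 21602 transcripts. The interval takes transcripts as independent, which isoforms of the same gene are not, so it serves only as a tolerance for the alternatives. Of the leading transcripts, 41 received rates, 14 from an exact solution and 27 from the closest fit where none exists. The median degradation half-life was 17.9 min with quartiles of 11.4 and 44.8 min, against 19.8 min with quartiles of 10.9 and 40.5 min for 7515 genes. The median half-life of the unspliced RNA was 4.00 min, against 3.54 min. The half-life depended strongly on how the ratios were read, and the order of decay genes and all genes turned with it. Over exact solutions only the medians were 34.2 min for 14 decay genes and 22.6 min for all genes, and with the second library read as total RNA they were 61.5 and 46.3 min. No gene is ranked by half-life here.

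Genes of decay outside the symbol rule also had a median below that of all genes. Of 73 such genes found by a list of adaptors, LSM proteins, poly(A)-binding and terminal transferase genes, 70 passed the filter, 15 were at least 1.5 times above and 32 at least 1.5 times below the median of all genes (all genes 28.3% and 25.4%), and their own median was -0.49. Relative to genes of like spliced length these were 16 above and 22 below (all genes 25.6% and 23.3%), with a median of -0.35. The highest were 3 LSM genes, subunits of a ring that binds shortened tails, Lsm5 with 629.7 labeled and 92.64 unlabeled (8.97-fold above), Lsm1 with 83.57 and 22.44 (4.92-fold) and Lsm3 with 296.7 and 93.58 (4.19-fold). The lowest were Khsrp, an AU-rich element binding protein, with 82.26 and 377.4 (3.47-fold below), the release factor Gspt2 with 37.52 and 154.4 (3.12-fold below) and the helicase Ddx6, a partner of CCR4-NOT and decapping, with 88.34 and 333.2 (2.86-fold below). For scale, 52 translation initiation factors had a median of -0.20 and 34 genes of the core spliceosome one of 0.28.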

How the data were processed

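Labeled and unlabeled RNA were each measured in 1 library. The authors removed reads of ribosomal RNA, aligned the rest to exon and intron sequences of Ensembl transcripts (mm10) with STAR 2.5.0 (version from the submitters' processing notes) and quantified them with RSEM. The deposited values carry the name TPM. As a column adds up to 10 times what TPM would, these relative abundances made by the authors with RSEM were treated as a score on that scale. Counts and depth were not used here.

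Transcripts were matched to GENCODE M21 on GRCm38 by identifier, 110366 of 121429. Gene values were sums over protein-coding transcripts. Genes needed a mean exon value of 10 (1 usual TPM) and exon values above 0. No pseudocount was used. Pools without replicates allow no test, and genes were described by a 1.5-fold limit around the median of all genes. Rates were found on a grid of 4000 points, tested on simulated data. The members, lists and role groups were chosen with earlier results of these data known. Values in both libraries are given for the 6 highest and 6 lowest genes by exon ratio, the 5 highest and 5 lowest by labeled intron to exon ratio, the 5 most abundant, the paralog pairs, Btg4, and the 3 highest and 3 lowest other decay genes. Further genes were added to describe each role. Some of these values are not reported here. The read strand is not given in the sources used here. Alternatives were other minimums, a pseudocount of 1, leading transcripts, all biotypes, carry-over of 0.211 times the unlabeled value (the 1st percentile of the exon ratio), other centres, a limit of 2-fold and other rate settings. The length-matched centre was added after seeing the data. Scripts ran in Python 3.11.15 with pandas 2.3.3, numpy 2.4.6 and scipy 1.17.1, and figures were drawn with matplotlib 3.10.9.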

Additional observations from a re-analysis of the deposited data

How the results depend on the processing

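Of 56 recomputed values for the 8 main results, 42 stayed close to the values reported (counts within 1.5 times, the share within its 95% interval, a median log2 ratio within 0.32 and other medians within the same factor), and 14 moved. The decay genes' median exon ratio, -0.27, kept its sign in all 8 alternatives run for it, but ranged from -0.42 with a minimum of 1 to -0.034 centred on genes of at least 100. All of these counted as close, because the tolerance of 0.32 is wider than the value itself. The 19 genes below 1.5-fold became 10 of 40 with a minimum of 50 (all genes 22.0%), 11 centred on genes of at least 100, 9 with a limit of 2-fold (all genes 11.3%) and 12 against genes of like spliced length, and the 15 genes above became 4 with a limit of 2-fold (7.55%, all genes 18.0%). Though counted as close, the genes above were 10 with a minimum of 1 (18.9%, all genes 31.3%) and 11 with all biotypes (20.8%, all genes 29.2%). Their share was slightly above that of all genes with a minimum of 50 (27.5%, all genes 27.0%), with leading transcripts (30.8%, all genes 28.7%) and with a pseudocount of 1 (28.3%, all genes 27.9%). The 8 genes with a labeled intron to exon ratio of 1 or more became 3 of 40 with a minimum of 50 (all genes 8.46%), 5 on leading transcripts (9.62%, all genes 9.80%) and 19 with carry-over subtracted (35.8%, all genes 32.0%), where the median ratio was 0.575 (all genes 0.658). Transcripts that could not be used for rates were 5.81% with a minimum of 50 (all transcripts 6.49%) and 45.1% with carry-over subtracted (all transcripts 33.6%), above the share of all transcripts where the reported share was below it. The half-life median was 38.8 min with carry-over subtracted (all genes 24.4), 61.5 min with the second library read as total RNA (all genes 46.3) and 34.2 min over exact solutions (all genes 22.6), above all genes in each and also with a pseudocount of 1 (21.7 against 18.8) and over all transcripts (22.2 against 19.2). The medians of the PAN2-PAN3 and PARN genes turned to 0.091 and 0.23 when centred on genes of at least 100 and on genes of like length, that of decapping to 0.0079 with the former and that of nonsense-mediated decay to 0.0026 with the latter. The minimum of 50 left 40 genes and the 2-fold limit is stricter, which lowers counts by construction. For the others the cause was not tested. No paired analysis was possible because each pool has 1 library. Unknown depth leaves low values, such as those of Dcp1b, Tob2 and Exosc4, without an error.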
